A study of Homo sapiens with 4 samples.

Results

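The regions described here are 707 bins of about 200 kb. They lay in the B compartment of growing cells and in the A compartment of senescent cells, both without and with a hairpin against HMGA1. They were selected on the measured maps themselves. A compartment score was computed for each bin of each autosome in 4 contact maps, and a bin was chosen by its sign: below 0 in both growing maps and above 0 in both RAS maps. The 707 bins were 5.50% of the 12862 autosomal bins scored, 9.56% of the 7397 bins that were B in Grow and 9.78% of the 7233 that were B in both growing maps. They covered 141.3 Mb and lay on all 22 autosomes.

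Contacts were measured by Hi-C, which cuts fixed chromatin with a restriction enzyme, ligates neighbouring ends and sequences the joined fragments. The cells were IMR90, an established line of normal human lung fibroblasts kept in low oxygen. Both shA1 groups carried the pLNCX2 ER:HRAS G12V vector, a mutant RAS fused to an oestrogen receptor domain that 4OHT switches on, and pMSCV miR shHMGA1, a hairpin against HMGA1. Grow-shA1 cells had no 4OHT, and OIS-shA1 cells were given 100 nM 4OHT for 6 days. Grow and OIS are the growing and RAS-senescent IMR90 states without that hairpin, and the labels used here describe no cells for these maps. The 4 samples of the series are 2 of Grow-shA1 and 2 of OIS-shA1, each pair pooled by the authors into 1 map. The Grow and OIS maps were made by the same laboratory for earlier work, outside this series, so hairpin and data set cannot be told apart wherever shA1 maps are set against the others. 1 hairpin was used, effects on other targets were not tested, and the contact files do not measure the level of HMGA1. With 1 map per condition there was no spread between replicates and no test between conditions, and every value below is a description of these maps.

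Mammalian chromosomes fold so that gene-rich, transcribed stretches (compartment A) meet each other more often than they meet gene-poor, silent stretches (compartment B), which often lie at the nuclear lamina. RAS-induced senescence of fibroblasts is known for loss of lamina contact and for gathering of heterochromatin into foci. HMGA1 is an abundant architectural protein whose AT hooks bind the minor groove of AT-rich DNA, and it is a component of those foci.

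The bins were cut at HindIII sites, which fixes where each region begins, and 3 of the edges are shown because the leading regions of the results start there. Each is 60 bases of the hg19 forward strand in lower case, with the HindIII site in capitals. The first is the edge of the longest run of such bins (chr12:78600140-78600199), the next that of the run holding MDM2 (chr12:69199399-69199458), and the last that of the bin with the largest gain of score (chr12:69403365-69403424).

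Longest run: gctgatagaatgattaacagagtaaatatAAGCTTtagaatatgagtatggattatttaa
MDM2 run: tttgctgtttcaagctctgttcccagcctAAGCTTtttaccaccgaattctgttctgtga
Largest gain: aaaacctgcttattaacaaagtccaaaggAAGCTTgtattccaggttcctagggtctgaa

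Promoters that lie in these bins are shown for SYT1, the single protein-coding gene starting in the longest run, and for MDM2, CDK1 and LEMD3, genes of the cell cycle, arrest and nuclear envelope lists. Each is the 120 bases just before the gene's annotated start in hg19, read on the gene's own strand, which is the forward strand for these 4 genes, with each CG in capitals. The stretches are chr12:79257653-79257772 for SYT1, chr12:69201837-69201956 for MDM2, chr10:62537969-62538088 for CDK1 and chr12:65563243-65563362 for LEMD3.

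SYT1: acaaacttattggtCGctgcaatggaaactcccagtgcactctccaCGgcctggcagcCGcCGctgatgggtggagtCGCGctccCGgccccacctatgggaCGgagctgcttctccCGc
MDM2: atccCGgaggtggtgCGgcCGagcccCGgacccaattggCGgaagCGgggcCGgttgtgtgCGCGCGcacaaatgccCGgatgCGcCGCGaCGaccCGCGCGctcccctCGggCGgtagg
CDK1: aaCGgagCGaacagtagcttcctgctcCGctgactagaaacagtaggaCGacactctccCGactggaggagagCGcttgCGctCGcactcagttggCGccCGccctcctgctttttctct
LEMD3: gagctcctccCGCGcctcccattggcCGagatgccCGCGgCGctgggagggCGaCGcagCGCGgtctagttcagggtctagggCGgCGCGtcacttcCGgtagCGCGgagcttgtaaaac

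The compartment score is the first principal component of the correlation matrix of a chromosome, scaled so that its root mean square is 1 on each chromosome and map, positive toward gene-rich bins. In the 707 bins its median was -0.32 in Grow, -0.40 in Grow-shA1, 0.38 in OIS and 0.36 in OIS-shA1. Stable B bins, negative in all 4 maps, had a median of -1.19 in Grow, and stable A bins, positive in all 4, a median of 0.96. The selected bins therefore sat close to the border between compartments in every map. The rise with RAS had a median of 0.73 without the hairpin and 0.83 with it, and the rise was smaller with the hairpin in 263 of the 707 bins. OIS-shA1 lay below OIS in 367 of them (51.9%), against 49.0% of all scored bins. The signs and sizes of these scores follow from the choice of the bins and carry no test.

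**Figure D1:**
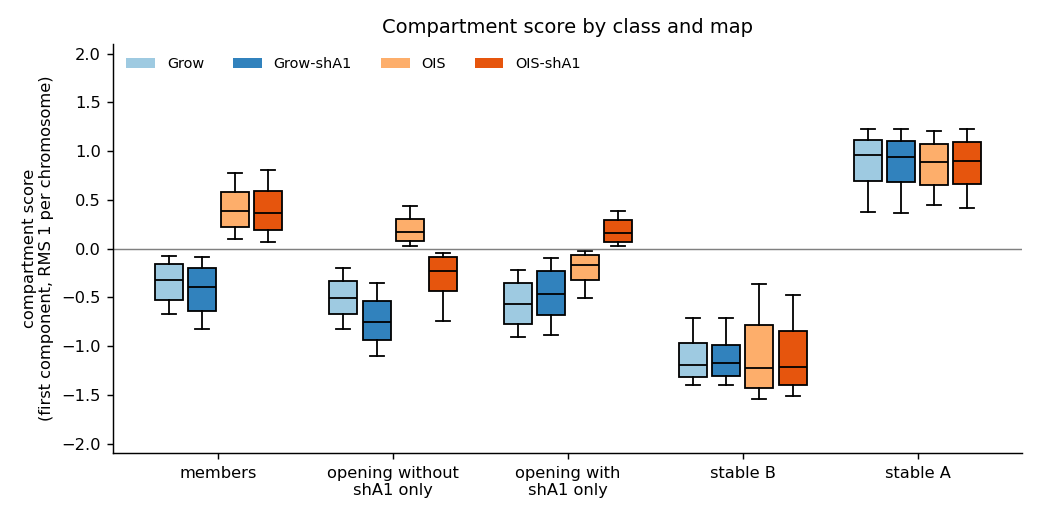
Compartment score (vertical axis, root mean square 1 per chromosome) of the 707 selected bins (members) and of 4 other classes of bins, with a box per map from the 25th to the 75th percentile, a line for the median and whiskers from the 10th to the 90th percentile over bins. The members sit nearer to 0 in every map than stable B or stable A bins, with medians of -0.32 and -0.40 in the growing maps and 0.38 and 0.36 in the RAS maps.

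A change of sign from B to A was frequent in these maps as a whole. Of the bins below 0 in Grow, 15.5% were above 0 in OIS, and of those below 0 in Grow-shA1, 13.4% were above 0 in OIS-shA1. The 707 bins were 61.8% of the 1143 B-to-A bins without the hairpin and 71.2% of the 993 with it. A further 320 bins were A in OIS alone of the 2 RAS maps, and 119 in OIS-shA1 alone. Changes from A to B numbered 94 and 115, and 39 bins closed in both comparisons.

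The zero of the score moved between maps, which bears on the number of bins chosen. Positive bins made up 42.5% of scored bins in Grow, 42.2% in Grow-shA1, 50.6% in OIS and 49.0% in OIS-shA1. When the threshold of each map was set to leave the same share of a chromosome above it as in Grow, 294 bins were chosen, and 283 of the 707 were among them. Ranked within its chromosome, the median bin stood at the 52.4th percentile in Grow, 51.7th in Grow-shA1, 58.8th in OIS and 59.5th in OIS-shA1. The rank rose with RAS both without and with the hairpin in 584 of the 707. The word opening is used below only for the change of sign.

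The selected bins came from the weak end of the B compartment. When the bins that were B in both growing maps were divided on each chromosome into 5 equal groups by their mean growing score, the group nearest to 0 held 620 of the 707 (87.7%), which was 42.6% of that group. The next held 83, and the 3 most negative groups held 3, 1 and 0. The growing score is part of the rule, so this count describes the choice.

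Values at the threshold were small. The 3 bins just inside it held ARFGEF1 (Grow-shA1 score -0.00039), RBL2 with AKTIP (OIS score 0.00076) and no gene start (a bin of chromosome 15, Grow-shA1 score -0.0011). The 3 just outside held GGACT with TMTC4 (Grow score 0.00088), SORL1 (OIS score -0.0013) and RNF103 with RMND5A (OIS score -0.0014). A margin of 0.1 around 0 in all 4 maps left 425 bins.

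Distal contacts, between bins over 2 Mb apart, showed where the change of score lay. The unit is the authors' distance-corrected contact score, a logarithm of unstated base, so differences are not folds. These values come from the maps that chose the bins and are given without a test. The mean contact of the 707 bins with stable B bins was 0.18 in Grow and 0.17 in Grow-shA1, and -0.15 in OIS and -0.18 in OIS-shA1. With RAS it fell by 0.33 without the hairpin and by 0.35 with it, on 22 of 22 autosomes in each case. The mean contact with stable A bins was -0.13 in Grow, -0.17 in Grow-shA1, -0.01 in OIS and 0.01 in OIS-shA1. It was higher with RAS by 0.12 without the hairpin, on 19 of 22 autosomes, and by 0.18 with it, on 22 of 22. The loss of contact with B was thus larger than the gain of contact with A in both comparisons. A fall of contact with stable B was not particular to the selected bins. For stable A bins it was -0.19 without the hairpin and -0.12 with it, on 22 of 22 autosomes each. Contact of stable A bins with one another differed by 0.02 and 0.03.

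**Figure D2:**
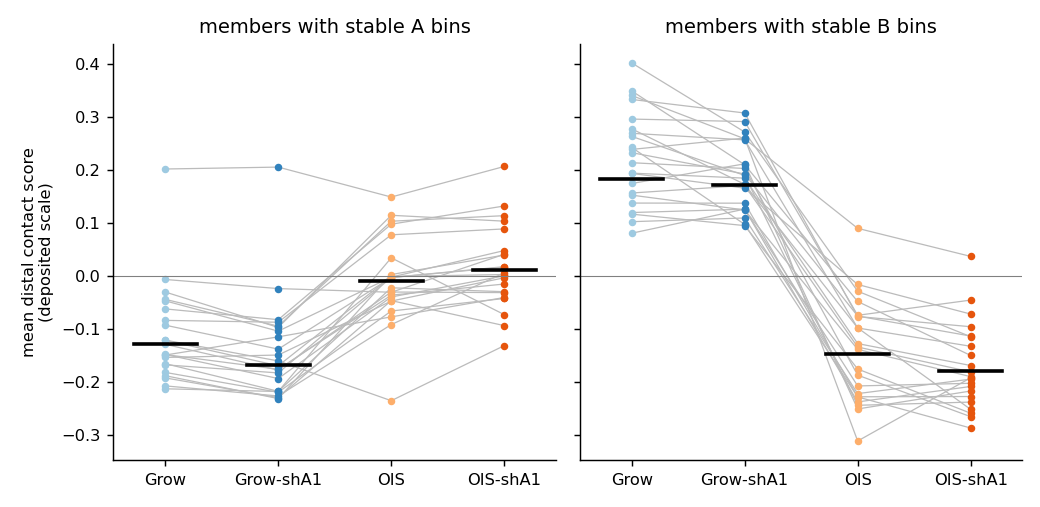
Mean distal contact score (vertical axis, the deposited scale) of the 707 bins with stable A bins (left) and stable B bins (right) in the 4 maps. Each point is 1 of the 22 autosomes, a grey line joins the values of an autosome, and a black bar is the mean over all pairs. All 22 lines fall from the growing to the RAS maps on the right, and the bars on the left rise from -0.13 and -0.17 to -0.01 and 0.01.

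Bin by bin, contact with stable B was lower in OIS than in Grow in 694 of 707 bins (98.2%), beside 68.0% of all scored bins, and lower in OIS-shA1 than in Grow-shA1 in 695 (98.3%), beside 64.7%. Contact with stable A was higher in OIS than in Grow in 585 of 706 bins with such pairs (82.9%), beside 39.3% of all scored bins. With the hairpin it was higher in 629 of 706 (89.1%), beside 43.7%. These shares were far from the background, as a choice on the same contrast makes them, and nothing further is read from them.

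The comparisons of the hairpin alone gave shares closer to the background than those of RAS. The rule asks for the same sign with and without the hairpin, and for opposite signs with and without RAS. This contrast therefore follows from the choice of the bins. In OIS-shA1 against OIS, 412 of 706 bins (58.4%) had more contact with stable A, beside 51.3% of all scored bins, and 436 of 707 (61.7%) had less contact with stable B, beside 64.0%. The means differed by 0.02 and -0.03. In Grow-shA1 against Grow, 193 of 706 (27.3%) had more contact with stable A, beside 29.7%. Less contact with stable B was found in 402 of 707 (56.9%), a smaller share than the 78.7% of all scored bins. The means differed by -0.04 and -0.01. With each map centred on its chromosome mean, Grow-shA1 minus Grow was 0.01 with stable A and 0.04 with stable B. OIS-shA1 minus OIS with stable B was then 0.01, so the direction of these small distal differences is not fixed. Within 2 Mb, OIS-shA1 minus OIS was -0.12 with stable A, on 21 of 22 autosomes, and -0.08 with stable B, on 20 of 22. Among stable A bins the same local difference was -0.14, on 20 of 22.

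The bins that opened without the hairpin alone differed from these in the same measure. In OIS-shA1 against OIS their mean contact with stable B was higher by 0.16, on 20 of the 20 autosomes that hold such bins, and with stable A it was lower by 0.13, on 19 of 20. They were chosen by a lower score in OIS-shA1, so the direction was set by the choice.

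Distance changed the size of the shift. With stable B, OIS minus Grow was -0.40 for pairs 2 to 5 Mb apart, -0.44 at 5 to 10 Mb, -0.47 at 10 to 20 Mb, -0.36 at 20 to 50 Mb and -0.17 beyond 50 Mb. With the hairpin the same distances gave -0.48, -0.52, -0.55, -0.37 and -0.14. With stable A, OIS minus Grow was 0.20, 0.21, 0.17, 0.14 and 0.03, and with the hairpin 0.18, 0.25, 0.25, 0.22 and 0.08. Among these distances the shift was smallest in the farthest pairs in all 4 cases. Nearer pairs, 0.3 to 1 Mb apart, gave 0.07 with stable A and the hairpin, below the 0.08 beyond 50 Mb.

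Distal contacts among the selected bins themselves had a smaller mean difference with RAS than those with stable A or stable B. It was 0.01 without the hairpin, on 13 of 22 autosomes, and 0.04 with it, on 16 of 22. Autosomes went both ways, from -0.53 to 0.52 without the hairpin and from -0.36 to 0.19 with it. The SD over autosomes without the hairpin was 0.18, against 0.08 for contact with stable A and with stable B. With the hairpin alone the mean contact among the selected bins differed by -0.09 in Grow-shA1 minus Grow, on 21 of 22 autosomes. In OIS-shA1 minus OIS it differed by -0.07, on 17 of 22. A fall was also present among stable B bins, by -0.10 on 22 of 22 autosomes and by -0.12 on 21 of 22. Distal contacts among stable A bins moved by -0.009 and 0.004. The mean distal contact of the selected bins with one another was 0.26 in Grow, 0.17 in Grow-shA1, 0.27 in OIS and 0.20 in OIS-shA1. Within 2 Mb it was 0.47, 0.42, 0.63 and 0.45. The local value was thus higher with RAS by 0.16 without the hairpin, on 19 of 21 autosomes, and by 0.03 with it, on 15 of 21. The same RAS differences were 0.05 and -0.05 among stable A bins, and -0.28 and -0.05 among stable B bins. The RAS difference with the hairpin minus that without it was -0.13 in the selected bins, -0.10 in stable A and 0.22 in stable B. The difference between the maps with and without the hairpin was not tested.

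Autosomes did not hold equal shares. Chromosome 11 had the largest share of its Grow B bins among the 707, at 15.1% (54 bins), followed by chromosome 21 at 15.0% (17 bins) and by chromosome 3, with 66 of 550 bins. Chromosome 22 had the lowest, at 4.41% (3 bins). On chromosome 19, the mean contact of the 10 bins with stable A was -0.12 in Grow and -0.24 in OIS, against the direction of the genome, but -0.16 in Grow-shA1 and -0.13 in OIS-shA1. On chromosome 22 it was positive in all 4 maps, at 0.20, 0.21, 0.15 and 0.21.

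The sequence of the bins did not enter the score. The median GC content was 41.5% in the 707 bins, 39.7% in bins opening without the hairpin only, 40.5% in those opening with the hairpin only, 38.0% in stable B bins and 41.8% in stable A bins. The median of the selected bins was above that of stable B bins on 22 of 22 autosomes and below that of stable A bins on 11 of 22. The gap to stable B varied in size. It was 43.21% against 43.17% on chromosome 17 and 39.93% against 39.73% on chromosome 1, but 42.93% against 37.61% on chromosome 11. The share of 1 kb windows with over 70% A and T had a median of 1.01% in the 707 bins, 1.98% in bins opening without the hairpin only, 1.51% in those opening with it only, 3.54% in stable B and 0.99% in stable A. On both measures the median of the selected bins lay near that of stable A. The ratio of observed to expected CG pairs was intermediate, with medians of 0.2155 in the selected bins, 0.1885 in stable B and 0.2378 in stable A. GC content and compartment are known to go together along human chromosomes, and the score of Grow had a median correlation of 0.43 with GC over bins of a chromosome.

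**Figure D3:**
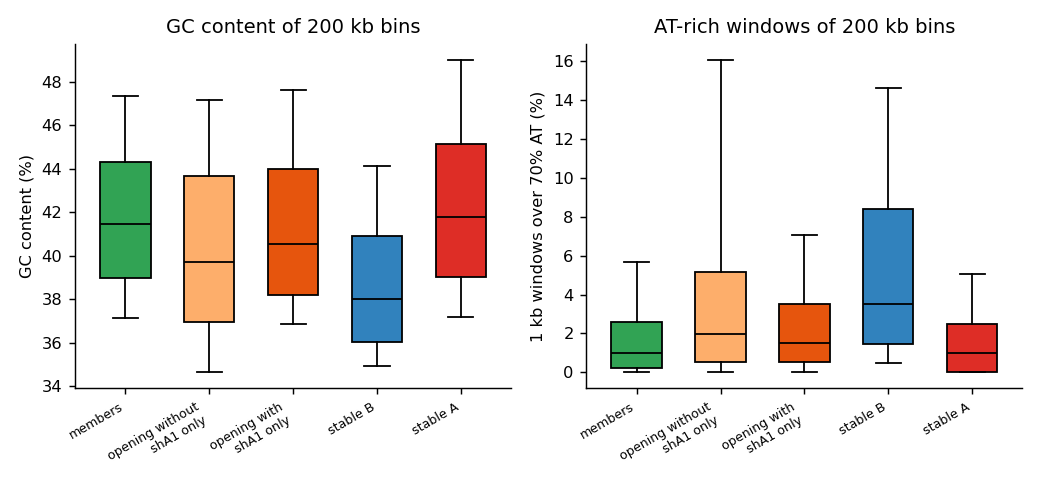
GC content (left, percent of bases) and share of 1 kb windows with over 70% A and T (right, percent of windows) of the bins of 5 classes, with boxes from the 25th to the 75th percentile, lines for medians and whiskers from the 10th to the 90th percentile over bins. The 707 selected bins (members) have medians of 41.5% and 1.01%, nearer to those of stable A bins than to those of stable B bins, 38.0% and 3.54%. The boxes of members and stable B bins overlap in both panels.

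Because the growing score was correlated with GC content over all bins of a chromosome, the classes were also compared within the group of B bins nearest to 0. There the 620 selected bins had a median GC content of 41.5% (SD over bins 4.08), the 199 bins opening without the hairpin only 40.6% (SD 4.55), the 81 opening with it only 39.7% (SD 4.34) and the 554 stable B bins 38.9% (SD 4.07). Their median growing scores were -0.30, -0.49, -0.38 and -0.52, so the match was partial. The spreads over bins were wider than the gaps between medians. In the next group, more negative, the order differed. The median GC content was 43.02% in the 35 bins opening with the hairpin only and 41.45% in the 83 selected bins. It was 39.01% in the 100 bins opening without the hairpin only and 39.8% in the 1231 stable B bins. Among stable B bins GC content was thus higher in this group than in the group nearest to 0.

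Genes were more frequent in the selected bins than in stable B. A mean of 1.64 protein-coding genes started per bin, against 0.93 in bins opening without the hairpin only, 1.80 in those opening with it only, 0.71 in stable B and 1.99 in stable A. No gene started in 30.98% of the selected bins, against 55.0%, 29.4%, 65.6% and 28.6% in the same order. Within the group of B bins nearest to 0 the gap to stable B was smaller, with means of 1.68 genes in selected bins (SD over bins 1.94) and 1.40 in stable B (SD 1.93), and no gene start in 31.1% and 42.6%. In the next group, more negative, the means were 1.35 in selected bins, 1.71 in those opening with the hairpin only and 1.07 in stable B. The selected bins had more gene starts than stable B on 21 of 22 autosomes, chromosome 17 being the exception. The number of genes oriented the score of each chromosome, and gene density is therefore not wholly independent of the rule. Gene length was similar, with a median of 32.6 kb for the 1158 genes of the selected bins and 29.3 kb for those of stable B. Genes over 500 kb made up 1.64% and 4.37%.

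Their promoters held fewer CG pairs than those of stable A and more than those of stable B. The 250 bases before a gene start held a median of 13 CG in the selected bins, 12 in bins opening without the hairpin only and in those opening with it only, 8 in stable B and 16 in stable A. At least 10 were found for 59.1% of the genes in the selected bins, 53.4% in bins opening without the hairpin only, 59.3% in those opening with it only, 46.7% in stable B, 65.9% in stable A and 60.2% of all genes. The promoters printed above held 33 (MDM2) and 11 (SYT1, CDK1) CG pairs in those 250 bases.

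The selected bins mostly lay at compartment borders. A bin that was A in Grow was next to 72.4% of them, against 51.9% of bins opening without the hairpin only, 59.7% of those opening with it only and 16.6% of stable B bins. Within the group of B bins nearest to 0 the shares were 73.9% of selected bins, 59.3% and 60.5% of the other opening classes and 47.5% of stable B bins. They formed 550 runs of adjoining bins, of which 432 were single bins, 88 were pairs and 30 had 3 or more. In the Grow map 178 runs lay between A bins on both sides, 263 between A and B, 93 between B bins, and 16 beside a bin that was not scored.

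The longest run had 6 bins (chr12:78600170-79798725), and SYT1, which encodes the calcium sensor of synaptic vesicle release, was the protein-coding gene starting there. Its mean score was -0.47 in Grow, -0.83 in Grow-shA1, 0.25 in OIS and 0.27 in OIS-shA1, and it lay between A bins in Grow. Its GC content of 35.5% was below the median of stable B. All 6 bins were lower in Grow-shA1 than in Grow.

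The run with MDM2, which encodes the ubiquitin ligase that degrades p53, had 3 bins (chr12:69199429-69801070). The bin of the MDM2 and CPM promoters scored -0.11 in Grow, -0.09 in Grow-shA1, 1.31 in OIS and 1.30 in OIS-shA1. The next bin, with no gene start, had the largest gain of all, 1.59, where gain is the lower RAS score minus the higher growing score. Its scores were -0.75, -0.86, 0.89 and 0.84. CPSF6, LYZ (lysozyme) and YEATS4 started in the last bin, at -0.41, -0.35, 0.55 and 0.52. The growing and the RAS pairs of maps were far apart in each bin, while maps with and without the hairpin were close.

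**Figure D4:**
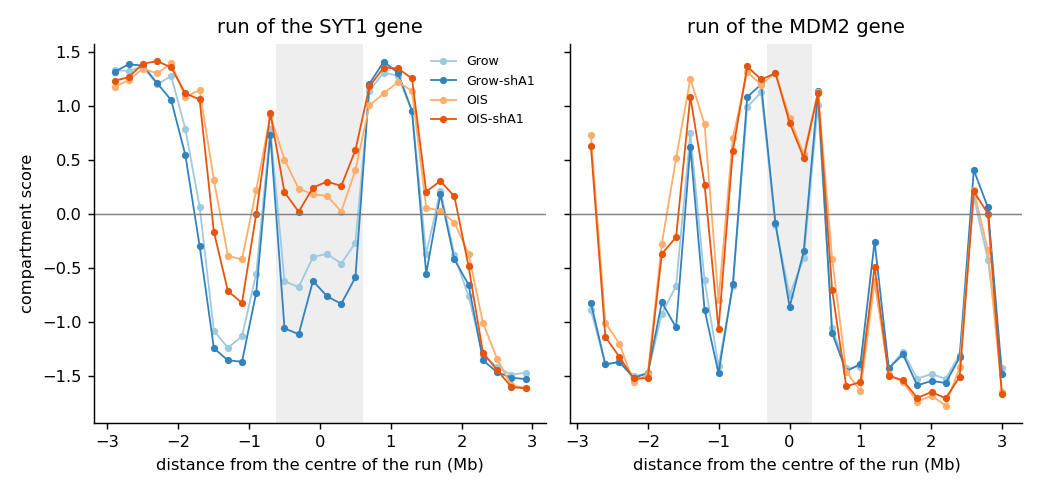
Compartment score (vertical axis) of scored bins within 3 Mb of the centre of the run of the SYT1 gene (left) and of the MDM2 gene (right), against distance from that centre in Mb, with a line per map and the run shaded. In both runs the Grow and Grow-shA1 lines lie below 0 and the OIS and OIS-shA1 lines above it, while many bins outside the shading keep their sign.

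The 5 bins with the largest gain all lay on chromosome 12. Besides the bin beside MDM2 they were those of TMCC3 (gain 1.56) and NDUFA12 (1.53), a subunit of respiratory complex I, which adjoin each other, a bin without a gene start at chr12:65196047-65400672 (1.55), and that of HELB, a DNA helicase (1.45). The bin of LEMD3, which encodes an inner nuclear membrane protein, adjoined the bin without a gene start and had scores of -1.02 in Grow, -0.95 in Grow-shA1, 0.30 in OIS and 0.54 in OIS-shA1. The median gain of the 707 bins was 0.61.

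The run of 5 bins on chromosome 6 (chr6:109794434-110800540) held ZBTB24, FIG4, AK9, GPR6, WASF1, CDC40, METTL24, DDO and SLC22A16, with mean scores of -0.61 in Grow, -0.78 in Grow-shA1, 0.64 in OIS and 0.89 in OIS-shA1. The run of TMCC3 and NDUFA12 also held CEP83, with means of -0.59, -0.57, 0.83 and 1.05. A run of 4 bins on chromosome 3 held the liver plasma protein genes AHSG, FETUB, HRG and KNG1 and the fat hormone gene ADIPOQ, among 13 genes, with means of -0.23, -0.58, 0.61 and 0.72. A run of 4 on chromosome 2 held the homeobox genes SIX3 and SIX2 (-0.50, -0.59, 0.30 and 0.45).

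The 24 runs of 3 bins tie in length, and the 4 with the largest mean gain were named, that of MDM2 among them. That on chromosome 6 at chr6:137201280-137799260 held the cytokine receptor genes IL20RA, IL22RA2 and IFNGR1 with SLC35D3, and its mean scores were -0.84, -0.96, 0.48 and 0.54. That on chromosome 15 held TMED3, MINAR1 and MTHFS (-0.86, -0.69, 0.41 and 0.88). That on chromosome 11, and a run of 4 bins on chromosome 1, held no protein-coding gene start. The mean distal contact of this chromosome 1 run with stable B differed by 0.04 in OIS minus Grow and by -0.07 with the hairpin. The other named runs were below 0 in both.

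Among bins with at least 50 pairs with stable A, the largest rises of that contact in OIS minus Grow were 0.49 in a bin of chromosome 1 without a gene start, 0.48 in the bin of KLF4, a zinc finger transcription factor, and 0.47 in a bin of chromosome 4 without a gene start. With the hairpin the same bins rose by 0.39, 0.42 and 0.44. The largest falls, -0.31 and -0.26, were in 2 bins of chromosome 19 with clusters of ZNF genes, and -0.26 in the bin of RGS21. Their values with the hairpin were -0.27, -0.10 and -0.07. These 3 bins changed sign while their contact with stable A fell.

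The genes of the 707 bins were read against lists of senescence genes and gene families. Of all 16950 protein-coding genes in scored bins, 1158 (6.83%) started in a selected bin. None of the 44 genes on the secretory phenotype list did, of which 38 started in stable A and 6 in stable B bins. Nor did any of 40 extracellular matrix genes, of which 36 were in stable A, or any of 15 AP-1 and C/EBP genes, of which 11 were. The lists were not complete. CXCL12, 1 of 39 chemokine genes (2.56%), and the matrix metalloproteinase gene MMP9 were outside the secretory and matrix lists and started in selected bins.

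Of 38 cell cycle genes 3 (7.89%) lay in selected bins, near the 6.83% of all genes, and 27 in stable A. CDK1, the kinase that drives entry into mitosis, lay in a bin with scores of -0.21 in Grow, -0.36 in Grow-shA1, 0.23 in OIS and 0.25 in OIS-shA1. The bin of E2F8, a repressor of the E2F family, had -0.67, -0.72, 0.23 and 0.20. The bin of MCM6, a subunit of the replicative helicase, had -0.38, -0.12, 0.10 and 0.04. No RNA was measured here, and a change of compartment is not a change of expression.

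Of 14 arrest regulators 2 (14.3%) lay in selected bins, beside 6.83% of all genes. They were MDM2 and RBL2, which encodes the retinoblastoma-like protein p130. The bin of MDM2 was chosen in 7 of 10 alternatives of the rule and that of RBL2, just inside the threshold, in 2 of 10. Contact of the RBL2 bin with stable A was lower with RAS, with differences of -0.14 without the hairpin and -0.05 with it. LEMD3 was the only one of 11 nuclear lamina and envelope genes (9.09%). TGFB3 and BMP6, ligands of the TGF beta family, were 2 of 32 Notch, WNT and TGF beta genes (6.25%). The bin of TGFB3 had scores of -0.18, -0.19, 0.38 and 0.52, and that of BMP6 -0.28, -0.36, 0.26 and 0.42, in the order Grow, Grow-shA1, OIS and OIS-shA1.

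Families with clustered genes gave shares on both sides of that of all genes, often from few bins. Of 55 cytochrome P450 genes 11 lay in 7 selected bins, among them the retinoic acid hydroxylases CYP26A1, CYP26B1 and CYP26C1 and the drug-metabolising CYP3A4 and CYP3A5. Of 149 keratin and keratin-associated genes 20 (13.4%) lay in 3 bins, among them the epidermal keratins KRT1, KRT5 and KRT6A. Of 33 serpin genes 5 (15.2%) lay in selected bins, all in 1 bin, including SERPINB3 and SERPINB4. Genes of a cluster share a bin and are not separate observations.

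Of 71 interleukin and receptor genes 9 (12.7%) lay in 7 selected bins: IL23R, IL12RB2, IL26, IL22, IL17RD, IL3, IL20RA, IL22RA2 and IL33. Of 484 ZNF genes 61 (12.6%) lay in 29 bins, against 210 in stable B and 150 in stable A. Olfactory receptor genes were nearly all elsewhere, with 4 of 394 (1.02%) in selected bins and 86.8% in stable B. The cornified envelope genes were all 30 in stable B. Of 85 cadherin and protocadherin genes 2 (2.35%), the adjoining CDH1 and CDH3, lay in a selected bin.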

How the data were processed

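The authors used HiC-Pro with the hg19 genome, took out duplicates and artefacts, summed contacts over HindIII-adjusted bins of about 200 kb, and applied iterative and distance correction. Column 3 of each deposited map is a score of both signs per pair of bins, whose log base and prior are not given in the sources used here; bin numbers and coordinates are other deposited columns. The deposited maps hold no read counts, so no counting error was computed, and the median share of pairs listed for the selected bins was 94.7% (Grow), 90.9% (Grow-shA1), 87.0% (OIS) and 85.3% (OIS-shA1).

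Autosomal bins with at least 50% of their pairs listed in each of the 4 maps were kept, 12862 of 13547. Unlisted pairs were set to 0, the correlation matrix was centred by column, and the first component was oriented by protein-coding gene starts (GENCODE, lifted to GRCh37). Contact means used pairs listed in all 4 maps. Symbols of the lists were matched through RefSeq synonyms. Sequences were read from GRCh37. The score was also computed on simulated maps built from the scores themselves plus noise. Such maps are made to return the score, so they bear on the computation and not on the choice of bins.

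Named bins were the 10 longest runs, the 5 largest gains, 3 on each side of the threshold, 3 with the largest rise and 3 with the largest fall of contact with stable A, and list genes. The bins, lists and rules were chosen with earlier results of these data known. python, numpy and pandas were used, with versions 3.11.15, 2.4.6 and 2.3.3.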

Additional observations from a re-analysis of the deposited data

How the results depend on the processing

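The number of selected bins stayed within 1.5 times of 707 in 8 of 10 alternatives. It was 425 with scores at least 0.1 from 0 and 294 with the threshold of each map at the Grow share of A bins, an alternative chosen after seeing the data. Of the 707 bins, 425 and 283 remained in these. When 70% of pairs had to be listed 424 remained, and 316 when the score was averaged over 3 bins. In every alternative planned earlier 155 (21.9%) remained. None of the 47 bins of chromosome 1 and none of the 3 of chromosome 22 were among these 155. The median GC content of the 155 was 40.9%. The median GC content was above that of stable B by 3.17 to 3.69 percentage points, and above that of bins opening without the hairpin only by 1.02 to 3.46, under all 10 alternatives of the choice of bins.

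Contact with stable A rose with RAS under all 7 alternatives, by 0.10 to 0.18 without the hairpin and by 0.14 to 0.23 with it. Contact with stable B fell under all 7; with unlisted pairs as 0 the differences were -0.232 and -0.245, the cause of which was not tested. The small distal differences of the hairpin alone reversed in places. Grow-shA1 minus Grow with stable B was 0.0065 with unlisted pairs as 0, 0.00033 over pairs listed in the 2 maps compared and 0.044 with each map centred per chromosome, and with stable A it was 0.014 with that centring. OIS-shA1 minus OIS with stable B was 0.0052 with that centring. The cause of these reversals was not tested. The spread used to judge a move of contact was the SD over autosomes. No paired analysis was possible because each condition had 1 map, in which the replicates were pooled. Fewer pairs were listed in the RAS maps than in the growing maps; the part of depth in this was not tested.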
